A study of Mus musculus with 19 samples.

Results

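The serotonin receptor family was represented by 10 genes among the 51789 rows of the count table: Htr1a, Htr1b, Htr2a, Htr2c, Htr3a, Htr4, Htr5a, Htr5b, Htr6 and Htr7. The rows were found by matching Ensembl identifiers, without their version, to these symbols in GENCODE release M21 (assembly GRCm38). RNA was sequenced from dorsal hippocampus of 19 male C57BL/6J mice, 2 to 4 months old, in 2 experiments. The mice of experiment 1 were all tTA+ (carriers of the tetracycline transactivator, a protein that switches on transgenes under a tet promoter) and had all been exposed to SOR, which the labels do not spell out. In this experiment 5 mice were DN+, carriers of the Nr4ADN transgene, and 6 littermate controls were DN-. Experiment 2 held DN- mice alone, 4 exposed to SOR and 4 left in the homecage. Its tTA- mice were SOR replicate 1 and homecage replicates 1 and 2, and its remaining 5 mice were tTA+. The promoter that drives tTA is not given in the sources used here, so the cells that carried the transactivator are unknown.

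Serotonin reaches the hippocampus in fibres from the raphe nuclei of the brain stem, and hippocampal cells respond to it through their receptors. The Htr1 and Htr5 receptors couple to inhibitory Gi proteins and lower cyclic AMP, the Htr2 receptors couple to Gq and phospholipase C, and Htr4, Htr6 and Htr7 couple to Gs and raise cyclic AMP. Htr3a is the exception in the family: it forms a cation channel that serotonin opens directly. Htr2c is also among the most abundant receptor genes of the choroid plexus, the epithelium in the ventricles that secretes cerebrospinal fluid and produces transthyretin (Ttr), and this tissue lies against the hippocampus where it can be carried along in a dissection.

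The libraries held 22258159 to 66991576 counts, and SOR replicate 3 of experiment 2 was the smallest. All 10 receptor genes passed the filter on low counts in each comparison, and Htr6 had the fewest counts, 25 to 65 per library. Levels below are TMM-scaled CPM (counts relative to the library total), and differences are log2 fold changes with their standard error (SE). Genes are referred to as called where edgeR's quasi-likelihood test, adjusted over all genes tested, gave a p under 0.05. The labels do not say more than that the libraries are separate samples, so p-values measure the spread between these samples. In tissue RNA, fewer cells of a type and less RNA per cell cannot be told apart. Markers of dentate granule cells and of CA1 pyramidal cells had counts in every library. A total of 5 libraries were highest in choroid plexus RNA: DN replicate 2 and control replicates 1 and 2 of experiment 1, and SOR replicates 1 and 2 of experiment 2. In these the mean log2 CPM of 12 choroid plexus markers was above 3, and the changes of the receptor genes are given with and without them.

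Htr1a was the receptor gene with the highest level per kilobase and Htr6 that with the lowest. Per kilobase of annotated exons, the mean level over the 14 control libraries was 6.91 CPM for Htr1a, an inhibitory receptor on pyramidal cells and raphe neurons. Htr4 followed at 4.81 and Htr3a at 4.68 CPM per kilobase. The order of this pair varied by group: Htr3a was above Htr4 in the experiment 1 controls (4.3 and 3.86), in the DN mice (4.21 and 3.83) and in the SOR mice of experiment 2 (5.07 and 5.06), and Htr4 was above Htr3a in the homecage mice (6.0 and 4.86), of which 2 were tTA-. A middle range was taken by Htr5b at 3.41, Htr5a at 3.12, Htr2c at 2.57, Htr7 at 2.34 and Htr2a at 2.32 CPM per kilobase. The lowest pair were Htr1b at 1.43 and Htr6 at 0.479 CPM per kilobase. In each of the 4 groups, Htr1b and Htr6 did not overlap in their libraries, and neither did Htr1b and the gene above it in the order. In between, most neighbours overlapped: in the experiment 1 controls, Htr3a with Htr4, Htr4 with Htr5b, Htr5b with Htr5a, Htr5a with Htr2c, Htr2c with Htr2a and Htr2a with Htr7. Htr1a lay apart from the next gene in both groups of experiment 1 and overlapped with it in both groups of experiment 2. The place of Htr2c depended on the length used: its annotated exons cover 9.328 kb and its longest transcript is 4.883 kb, and per kilobase of the longest transcript it took place 3, in place of 6, at 4.9 CPM.

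**Figure D1:**
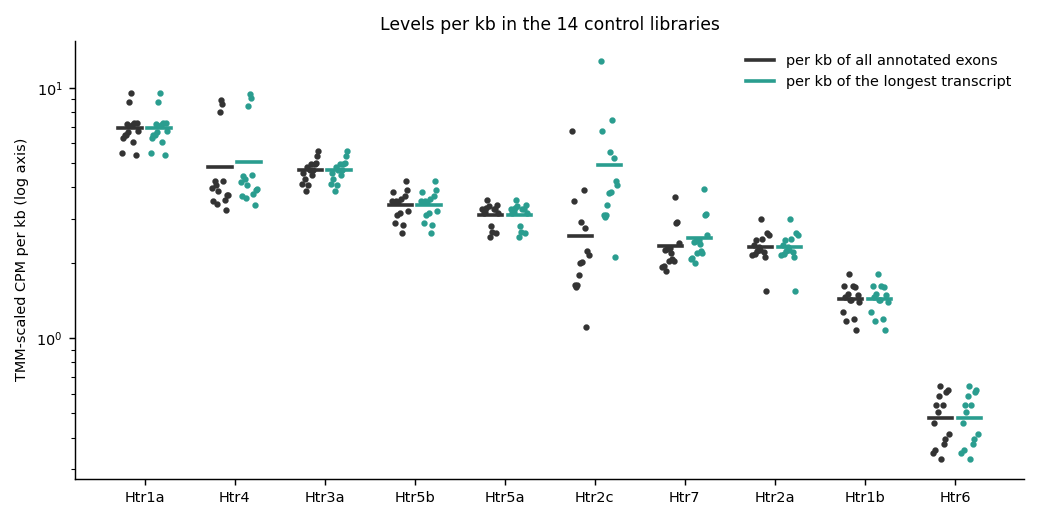
Level of each receptor gene in the 14 control libraries, in TMM-scaled CPM per kilobase on a log axis, with genes ordered by mean; dots are libraries, bars are means, and the pair of colours gives length as all annotated exons or as the longest transcript. Htr1a is highest at 6.91 and Htr6 lowest at 0.479 CPM per kilobase, Htr4 splits into a group of 3 libraries above the rest, and Htr2c has the widest spread and the largest shift between lengths.

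Across the 3 comparisons the study's groups allow, 1 receptor gene was called once: Htr4 was lower in tTA+ than in tTA- mice. Between DN and control mice none of the 10 was called by edgeR, DESeq2 or limma-voom, against 0.00893% of the 22391 genes tested by edgeR. At an unadjusted p under 0.05 edgeR found 1 of the 10 (Htr1a), against 3.83% of all genes tested. Between SOR and homecage mice none was called by any of the 3 tools, against 0.0897% of the 22305 genes tested by edgeR. The unadjusted p was under 0.05 for none in edgeR and limma-voom and for 1 in DESeq2, against 7.6% of all genes in edgeR. Between tTA+ and tTA- mice 1 of 10 was called, against 0.358% of 22904 genes (0.249% called lower). The groups were free of overlap in 0 of the 10 genes with DN, 0 with SOR and 1 with tTA, against 0.299%, 5.71% and 5.8% of all genes tested. The family was taken up with this result known, so the share of its genes called is not evidence about the family. Whatever the p, 3 of the 10 were higher with DN, 4 with SOR and 6 with tTA, against 50%, 51.5% and 53.2% of all genes tested. With tTA the unadjusted p was under 0.05 for 4 of the 10 (Htr1a, Htr4, Htr5a and Htr7), against 5.71% of all genes.

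**Figure D2:**
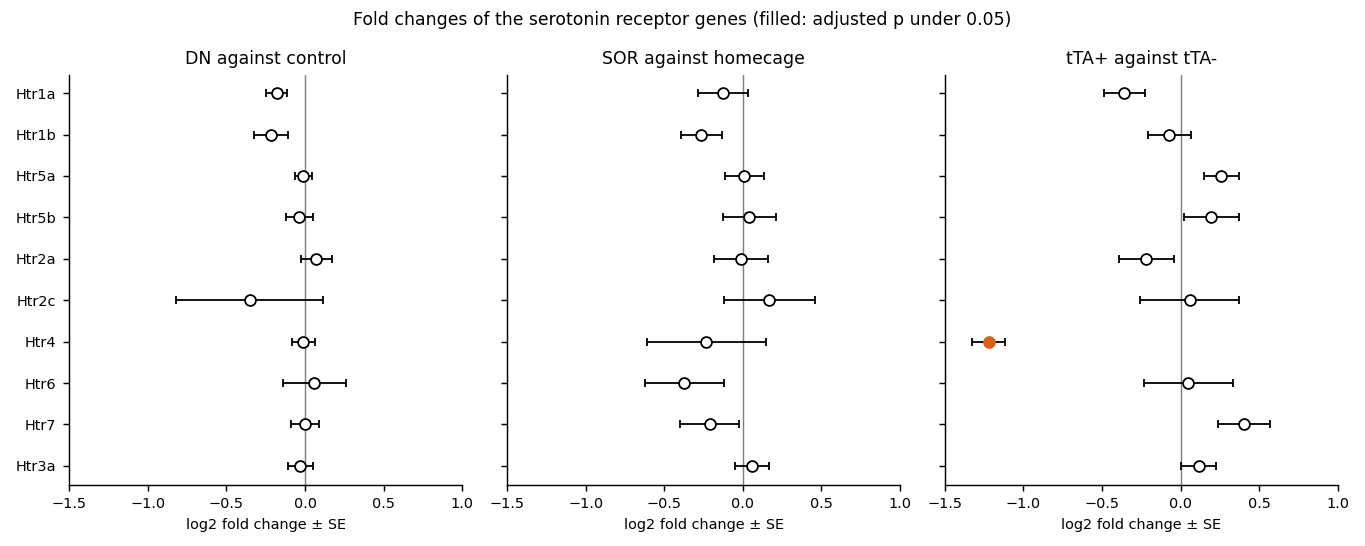
Log2 fold change (x axis) of each receptor gene (y axis, ordered by signalling route) in the 3 comparisons; points are estimates, bars are 1 SE to each side, and a filled point marks an adjusted p under 0.05. Htr4 at -1.22 between tTA+ and tTA- mice is the one filled point, and Htr2c has the widest bars with DN.

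Htr4, a Gs-coupled receptor known to raise the excitability of hippocampal neurons, lies on chromosome 18 (62324204 to 62496577, plus strand, 14 annotated exons). In experiment 2 it was at 44.1 CPM in the tTA- mouse exposed to SOR and at 39.5 and 42.4 CPM in the tTA- homecage mice. The tTA+ mice had 20.9, 15.9 and 18.4 CPM with exposure to SOR, and 17.5 and 18.3 CPM with the homecage. All 3 tTA- libraries lay above all 5 tTA+ libraries after SOR as in the homecage.

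The mean was 18.2 ± 1.8 CPM (SD, n = 5) with tTA and 42.0 ± 2.32 CPM (SD, n = 3) without it. Htr4 fell by 1.22 on the log2 scale (SE 0.104), a fold of 0.43, with an edgeR adjusted p of 0.000806, and it was eighth of all genes by p. The 2 SE interval ran from -1.43 to -1.01. Without SOR replicate 1, the tTA- mouse of the SOR group, the log2 fold change was -1.19 and the edgeR adjusted p 0.0512, which ends the call. Without both choroid plexus rich libraries it was -1.20 with an edgeR adjusted p of 0.0323. In experiment 1, where every mouse was tTA+, Htr4 was at 16.4 to 21.1 CPM in all 11 libraries, a range that overlaps that of the tTA+ mice of experiment 2 and lies under all tTA- values. That experiment was scaled separately and no test was run across the experiments.

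Some markers of dentate granule cells, the main neurons of the dentate gyrus, differed along with Htr4. The summed level of the 8 granule markers was 564 to 614 CPM in tTA- and 379 to 459 CPM in tTA+ mice of experiment 2, with no overlap. Of the 8, 6 were lower in tTA+ mice and 2 of these were called by edgeR: C1ql2 at -2.19 (adjusted p 0.000316) and Dsp at -1.06 (adjusted p 0.0191). Tdo2 was called in the other direction, at 0.88 (edgeR adjusted p 0.00656). Prox1, the transcription factor that defines these cells, was at -0.67 and not called (edgeR adjusted p 0.35), and none of the 8 was at 0 in any library. Calb1 was at -0.40 and not called, and Sema5b at -0.05, Lct at -0.01 and Plk5 at 0.03 were near 0. In experiment 1 the granule sum was 361 to 495 CPM. The part of this difference in the Htr4 result was not tested.

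Markers of other cell types were compared between the tTA genotypes in the same way. The 10 interneuron markers summed to 1330 to 1380 CPM in tTA- and 1420 to 1690 CPM in tTA+ mice, again with no overlap but with the tTA+ mice higher. Of the 10, 8 were higher in tTA+ mice, with a median of 0.20 on the log2 scale. All 8 oligodendrocyte markers (median 0.20) and all 5 microglia markers (median 0.08) were higher too, against a median of 0.01 over all genes tested, and edgeR, DESeq2 and limma-voom called none of these. In edgeR the unadjusted p was under 0.05 for 2 interneuron, 2 oligodendrocyte and 0 microglia markers. Of the medial habenula markers 4 were tested, 2 higher and 2 lower with a median of -0.03, and of these Tac2 was called higher at 1.52 (edgeR adjusted p 0.0299). The sum over 6 CA1 pyramidal markers was 424 to 459 CPM in tTA- and 362 to 443 CPM in tTA+ mice, and none of the 6 was called by edgeR, DESeq2 or limma-voom (1 had an unadjusted p under 0.05 in each). The 7 CA2 and CA3 pyramidal markers summed to 342 to 362 CPM in tTA- and 295 to 394 CPM in tTA+ mice. Of the 7, 2 were higher and 5 lower, and edgeR called none, with an unadjusted p under 0.05 for 3. DESeq2 called 1 of them, Map3k15 (0.66 in edgeR), against 255 of 22904 genes. No thalamus, astrocyte or endothelium and blood marker was called by the 3 tools or had an unadjusted p under 0.05. The 12 choroid plexus markers summed to 74.5 to 1030 CPM in tTA- and 26.9 to 2270 CPM in tTA+ mice, and the 3 tools called none, with no unadjusted p under 0.05. The part of these lists in the Htr4 result was not tested.

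The genes whose log2 CPM followed Htr4 most closely over the 19 libraries, with each experiment centred on its own mean, were Esyt2 (r = 0.959), Gm37824 (0.952), Doc2b (0.948), Il1r1 (0.947) and Stxbp6 (0.946), out of 21740 genes. These values describe the libraries, and they share the split by tTA genotype that separates the Htr4 values.

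Exposure gave no called difference in Htr4. SOR against homecage gave -0.23 (SE 0.378), with edgeR adjusted p 0.856, in groups with 1 and 2 tTA- mice respectively. With tTA genotype in the model it was 0.07 (SE 0.103), and in the tTA+ mice alone 0.04 (SE 0.158). With DN, Htr4 was at 18.8 ± 2.11 CPM (SD, n = 5) against 19 ± 1.57 CPM (SD, n = 6), a log2 fold change of -0.01 with a 2 SE interval from -0.16 to 0.13.

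**Figure D3:**
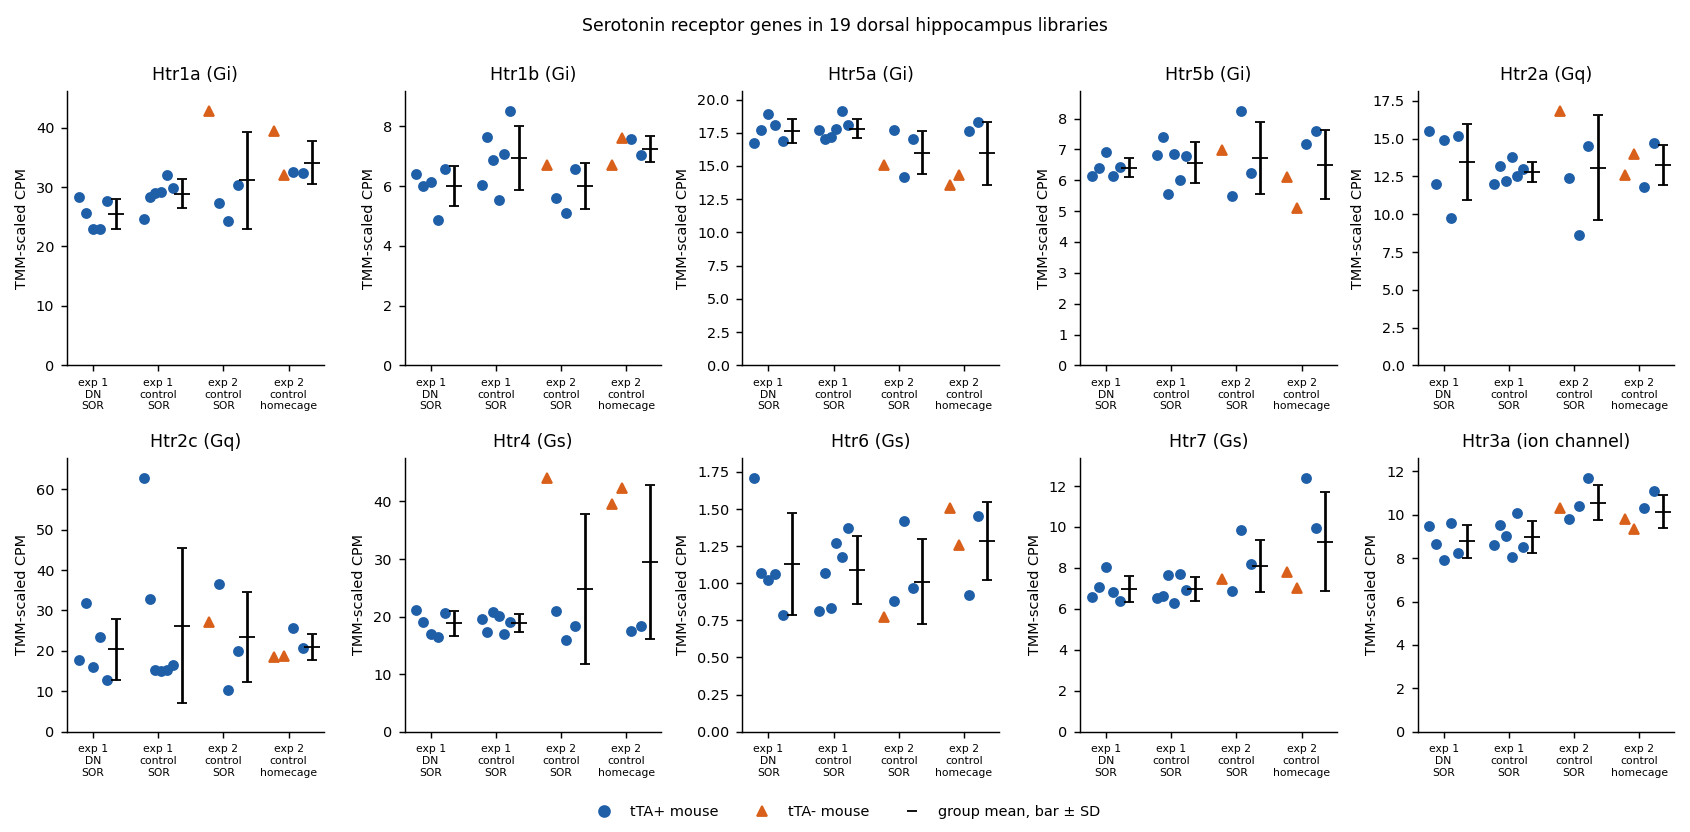
TMM-scaled CPM (y axis, from 0) of each receptor gene in the 19 libraries by group (x axis); circles are tTA+ and triangles tTA- mice, and the black mark with its bar is the group mean ± SD. The 3 triangles of Htr4 sit between 39.5 and 44.1 CPM with every circle at or under 21.1 CPM, and single Htr2c libraries reach 62.8 CPM.

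The other Gs-coupled genes were not called. Htr7, a receptor also linked to circadian timing, was at 7.47, 7.81 and 7.02 CPM in the tTA- mice. Among the tTA+ mice, those exposed to SOR had 6.88, 9.84 and 8.18 CPM and those left in the homecage 12.4 and 9.93 CPM. The lowest tTA+ library lay below the tTA- libraries and the other 4 above them. The log2 fold change was 0.40 (SE 0.164, unadjusted p 0.033, edgeR adjusted p 0.774). SOR against homecage gave -0.21 for Htr7 (SE 0.186), and -0.04 without homecage replicate 3, its highest library. DN against control gave 0.00074 (SE 0.0877) at 6.98 ± 0.653 and 6.96 ± 0.594 CPM (SD, n = 5 and 6).

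Htr6, a receptor found mostly in the striatum and cortex, was at 0.77 to 1.71 CPM in all 19 libraries. Its log2 fold changes were 0.06 (SE 0.201) with DN, -0.37 (SE 0.252) with SOR and 0.05 (SE 0.284) with tTA. The intervals at 2 SE ran from -0.34 to 0.46, from -0.88 to 0.13 and from -0.52 to 0.62.

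Htr2c, a Gq-coupled receptor whose messenger RNA is edited, lies on chromosome X (146962513 to 147197277, plus strand, 16 annotated exons). Its highest levels were in the libraries rich in choroid plexus RNA, in both experiments and in 3 of the 4 groups. In the DN mice it was at 17.8, 31.9, 16.1, 23.4 and 12.8 CPM in replicates 1 to 5. In the experiment 1 controls it was at 62.8, 32.8, 15.2, 14.9, 15.2 and 16.6 CPM in replicates 1 to 6. The high libraries, DN replicate 2 and control replicates 1 and 2, are the 3 choroid plexus rich ones of that experiment.

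In experiment 2, SOR replicates 1 to 4 had 27.1, 36.5, 10.3 and 20 CPM of Htr2c. Homecage replicates 1 to 4 had 18.6, 18.8, 25.7 and 20.7 CPM. SOR replicates 1 and 2, again the choroid plexus rich libraries, were the 2 highest. Over both experiments Htr2c was at 27.1 to 62.8 CPM in the 5 rich libraries and at 10.3 to 25.7 CPM in the other 14, with no overlap. None of the other 9 receptor genes separated these sets over the 19 libraries. Htr6 did so within experiment 2, where it was at 0.77 and 0.882 CPM in the 2 rich libraries and at 0.923 to 1.51 CPM in the other 6. The share of all genes that separate these sets was not computed, so these separations describe the libraries and are not evidence about the family.

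Ttr itself varied far more. It was at 3840 and 1250 CPM in control replicates 1 and 2 of experiment 1, at 1510 CPM in DN replicate 2, and at 912 and 2010 CPM in SOR replicates 1 and 2 of experiment 2. In the other 14 libraries it was at 4.22 to 142 CPM. A least squares line of Htr2c on Ttr in experiment 1 gave 16.1 CPM at no Ttr and 12 CPM more Htr2c per 1000 CPM of Ttr, with a residual SD of 2.89 CPM where the SD of Htr2c was 14.7 CPM. In experiment 2 the line gave 18.6 CPM at no Ttr and 9.01 CPM per 1000 CPM of Ttr, with a residual SD of 4.48 CPM and an SD of 7.69 CPM. Both slopes are set mainly by the rich libraries, which hold most of the spread in Ttr. Among the libraries that were not rich, Pearson's r of Htr2c with Ttr, in log2 CPM, was 0.183 in experiment 1 (n = 8). In experiment 2 it was 0.658 (n = 6). Libraries with little Ttr still held Htr2c, and some lay well off the line: DN replicate 4 by 7.1 CPM above, homecage replicate 3 by 6.66 CPM above and SOR replicate 3 by -8.39 CPM, below it.

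**Figure D4:**
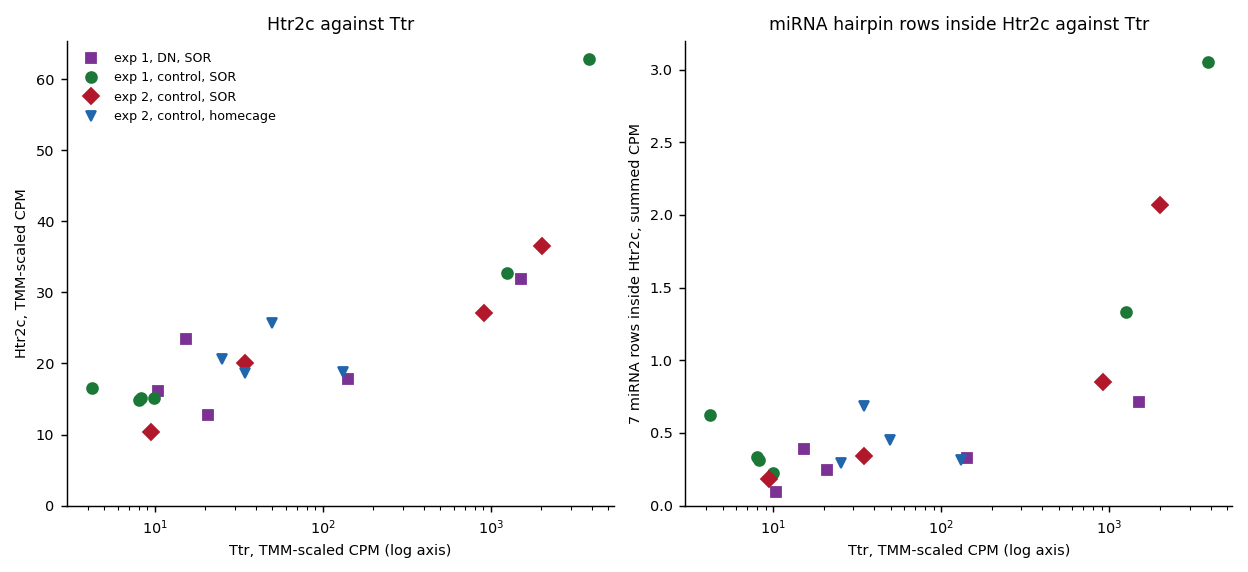
Left, Htr2c against Ttr in each library of the 2 experiments, both in TMM-scaled CPM, with Ttr on a log axis and groups by colour. Right, the 7 microRNA hairpin rows inside Htr2c, as summed CPM by library total, against Ttr on the same axis. The libraries with Ttr at 912 CPM or more are the 5 with the most Htr2c, and those with little Ttr spread from 10.3 to 25.7 CPM of Htr2c.

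Correlations with the choroid plexus score, the mean log2 CPM of the 12 markers without Htr2c, were computed within each experiment. In experiment 1 the scores fell into separate clusters with a gap of 2.15 log2 units, so no pooled correlation is given. The largest gap in experiment 2 was 1.66 log2 units, under the 2 units taken to mark separate clusters. Within the 8 libraries of the lower cluster, Pearson's r for Htr2c was 0.244 (exact permutation p 0.443, adjusted 0.791 over 20 relations) and Spearman's rho was 0.429 (exact permutation p 0.299, adjusted 0.654). Without the 2 farthest libraries that r was 0.0023. In experiment 2, over 8 libraries, r was 0.823 (exact permutation p 0.00915, adjusted 0.183) and rho was 0.762 (exact permutation p 0.0368, adjusted 0.368). Without the 2 farthest, which are the 2 rich libraries, r was 0.671 with n = 6.

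The 12 choroid plexus markers differed in mean between the groups without passing the test. With DN all 12 were lower (median -0.97 on the log2 scale), and with SOR all 12 were higher (median 2.16). The median over all genes tested was 0 with DN and 0.01 with SOR. None was called in either by the 3 tools. With SOR 7 had an unadjusted p under 0.05 in edgeR (7.6% of all genes did), 8 in DESeq2 and 0 in limma-voom, and with DN none had one in any of the 3. Their summed level was 32.5 to 1710 CPM in DN and 26.1 to 4260 CPM in control mice, with 26.9 to 2270 CPM for SOR and 50.8 to 185 CPM for homecage mice. In the controls of experiment 1, 1 of the 12 was at 0 counts in some library.

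The Htr2c fold changes varied with the treatment of these libraries. With DN the log2 fold change was -0.35 (SE 0.467, edgeR adjusted p 0.999). It was -0.12 with the choroid plexus score in the model, -0.56 without DN replicate 2, 0.11 without control replicate 1 and 0.19 without all 3 rich libraries. With SOR it was 0.17 (SE 0.289, edgeR adjusted p 0.865), then -0.31 with the choroid plexus score in the model and -0.46 without the 2 rich libraries. None of these values was called. With tTA it was 0.06 (SE 0.314), 0.29 with the score in the model, 0.31 without the 2 rich libraries, and -0.16 to 0.31 when each library was left out in turn.

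Rows annotated inside the introns of Htr2c, on the same strand and without overlap with its exons, also tended to be higher in the rich libraries. They are the small nucleolar RNA Snora35 and 7 microRNA hairpins, and together they had few counts. These values are CPM by the library total, without TMM scaling. The 7 hairpin rows summed to 0.712 to 3.05 CPM in the 5 rich libraries and to 0.0905 to 0.683 CPM in the other 14, with no overlap. The nearest libraries were DN replicate 2 with 22 counts and homecage replicate 1 with 20 counts. In raw counts the sets overlapped, at 22 to 97 and 3 to 30. Snora35 was at 0.186 to 1.36 CPM and at 0 to 0.454 CPM, and these ranges overlap. The counts are of hairpin rows in total RNA and are not levels of mature microRNAs.

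The hairpin rows with the most counts were Gm22650, Mir764, Mir1912 and Mir1264, and the mature microRNAs that RefSeq (GRCm38.p6) gives for them are shown to identify these rows. Capitals mark the seed, bases 2 to 8, and no seed occurs in 2 of them.
mmu-miR-3552: aGGCUGCAggcccacuucccu
mmu-miR-764-5p: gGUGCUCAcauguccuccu
mmu-miR-764-3p: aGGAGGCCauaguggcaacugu
mmu-miR-1912-3p: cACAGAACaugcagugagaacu
mmu-miR-1264-3p: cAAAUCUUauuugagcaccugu
Their hairpins lie between 146999405 and 147010686 on chromosome X.

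The genes whose log2 CPM followed Htr2c most closely over the 19 libraries were Slc31a1 (r = 0.937), a copper importer, Wdr63 (0.932), Slc2a12 (0.929), a glucose transporter, Steap2 (0.929), a metal reductase, and Prlr (0.927), the prolactin receptor and one of the 12 choroid plexus markers.

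Htr2a, the other Gq-coupled gene and the target of classic hallucinogens, was at 9.74 to 15.5 CPM in DN mice and at 12 to 13.8 CPM in their controls. The DN range enclosed that of the controls, and DN replicate 4 was the lowest library of experiment 1. The log2 fold changes were 0.07 (SE 0.0987) with DN, -0.01 (SE 0.173) with SOR and -0.22 (SE 0.175) with tTA. In experiment 2, SOR replicate 1 was the highest library at 16.8 CPM and SOR replicate 3 the lowest at 8.66 CPM. Without SOR replicate 3 the change with SOR was 0.13. With each library left out in turn, the change with DN ranged from 0.01 to 0.17 and that with tTA from -0.34 to -0.0047.

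Among the Gi-coupled genes, Htr1a had the smallest unadjusted p with DN. Htr1a lies on chromosome 13 (105443639 to 105448122, plus strand) in a single exon. DN replicates 1 to 5 had 28.3, 25.6, 22.9, 23.0 and 27.7 CPM. Control replicates 1 to 6 had 24.6, 28.4, 29.0, 29.2, 32.1 and 29.8 CPM. The groups overlapped: DN replicates 1, 2 and 5 lay above the lowest control, control replicate 1. The means were 25.5 ± 2.54 (SD, n = 5) and 28.8 ± 2.43 CPM (SD, n = 6), the log2 fold change was -0.18 (SE 0.0671, unadjusted p 0.0146), and with an edgeR adjusted p of 0.999 it was not called.

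In experiment 2, Htr1a was at 42.7 CPM in the tTA- mouse exposed to SOR and at 39.5 and 32.0 CPM in the tTA- homecage mice. The tTA+ mice had 27.3, 24.2 and 30.3 CPM with SOR, and 32.5 and 32.4 CPM with the homecage. The 2 highest libraries were tTA-, and the remaining tTA- library lay among the tTA+ ones. The log2 fold change with tTA was -0.36 (SE 0.129, unadjusted p 0.019, edgeR adjusted p 0.653), and it was -0.14 without SOR replicate 1. With SOR it was -0.13 (SE 0.158), from -0.32 without SOR replicate 1 to -0.03 without SOR replicate 3.

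Htr1b, a receptor on axon terminals that limits transmitter release, was the receptor gene with the smallest unadjusted p with SOR. The SOR libraries had 6.72, 5.61, 5.11 and 6.57 CPM and the homecage libraries 6.70, 7.60, 7.59 and 7.05 CPM, so that SOR replicate 1 alone reached into the homecage range. The log2 fold change was -0.27 (SE 0.131, unadjusted p 0.0667, edgeR adjusted p 0.662). With DN it was -0.22 (SE 0.109, unadjusted p 0.0621, edgeR adjusted p 0.999), at 6.00 ± 0.673 (SD, n = 5) against 6.95 ± 1.07 CPM (SD, n = 6), and the groups overlapped. With tTA it was -0.07 (SE 0.139). The antisense gene D430036J16Rik overlaps 852 bases of Htr1b exons and had 11 to 128 counts per library. Whether the counting used strand is not given in the sources used here, so how this overlap affects the Htr1b values is unknown.

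Htr5a and Htr5b are a pair of closely related receptors, and Htr5a spread little over the libraries of experiment 1. Htr5a was at 16.7 to 18.9 CPM in DN and at 17.0 to 19.1 CPM in control mice, and its log2 fold change was -0.01 with a 2 SE interval from -0.12 to 0.10. Htr5b was at 6.14 to 6.91 and at 5.57 to 7.41 CPM, with a log2 fold change of -0.04 (SE 0.088). In experiment 2, Htr5a was at 13.6 to 15.1 CPM in the tTA- mice and at 14.2 to 18.3 CPM in the tTA+ mice, with SOR replicate 3 the one tTA+ library inside the tTA- range. That log2 fold change was 0.26 (SE 0.112, unadjusted p 0.043, edgeR adjusted p 0.84), and that of Htr5b was 0.19 (SE 0.175). With SOR the changes were 0.01 (SE 0.124) and 0.04 (SE 0.168).

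Htr3a, the ion channel subunit, is a marker of a class of interneurons. It was at 7.90 to 9.63 CPM in DN and at 8.04 to 10.1 CPM in control mice, with 9.81 to 11.7 CPM for SOR and 9.33 to 11.1 CPM for homecage mice in experiment 2. Each pair of groups overlapped over most of its range. The log2 fold changes were -0.03 (SE 0.0806) with DN, 0.06 (SE 0.108) with SOR and 0.11 (SE 0.112) with tTA, and the 2 SE interval with DN ran from -0.19 to 0.13. Of the 10 interneuron markers none was called in any comparison by the 3 tools, and in edgeR the unadjusted p was under 0.05 for 0 with DN, 1 with SOR and 2 with tTA.

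Leaving out the choroid plexus rich libraries, a choice made after the scores were seen, gave no further call among the receptor genes. With DN the log2 fold changes were then -0.24 for Htr1a, -0.23 for Htr1b, 0.10 for Htr2a, -0.01 for Htr3a, -0.04 for Htr4, -0.03 for Htr5a, 0.03 for Htr5b, -0.0052 for Htr6 and -0.04 for Htr7. With SOR they were -0.32 for Htr1a, -0.31 for Htr1b, -0.19 for Htr2a, 0.13 for Htr3a, -0.78 for Htr4, -0.03 for Htr5a, 0.14 for Htr5b, -0.13 for Htr6 and -0.06 for Htr7. With tTA they were -0.14 for Htr1a, 0.03 for Htr1b, -0.0095 for Htr2a, 0.16 for Htr3a, 0.36 for Htr5a, 0.40 for Htr5b, -0.23 for Htr6 and 0.60 for Htr7. The SOR value of Htr4 there compares 2 tTA+ mice with a homecage group in which 2 of 4 mice were tTA-.

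Other genes of the serotonin system were taken as lists: the remaining receptors, synthesis, transport and breakdown, the Gs, Gi and Gq routes, and receptor partners with RNA editing enzymes. Of their 56 genes 53 were tested in each comparison, and edgeR and limma-voom called none in any. DESeq2 called 1, Rapgef4 with tTA, where it called 255 of 22904 genes. In edgeR the unadjusted p was under 0.05 for 2 of the 53 with DN, 2 with SOR and 7 with tTA, against 3.83%, 7.6% and 5.71% of all genes tested. The median log2 fold change was 0.01 with DN, 0.04 with SOR and 0.04 with tTA, against 0 with DN, 0.01 with SOR and 0.01 with tTA over all genes tested.

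In the lists of the Gs route and the Gq route the smallest p came with tTA. Rapgef4, which carries cyclic AMP signals to Rap, was at 780 ± 28 CPM (SD, n = 5) with tTA and 634 ± 26.1 CPM (SD, n = 3) without it, and the log2 fold change was 0.28 (edgeR adjusted p 0.325). Plcb4, a phospholipase C that Gq activates, was at 54.9 ± 8.7 and 38.4 ± 6.92 CPM (SD, n = 5 and 3), a log2 fold change of 0.52 (edgeR adjusted p 0.425). With SOR, the serotonin-degrading enzyme gene Maob was at 26.3 ± 2.97 against 20.8 ± 3.3 CPM (SD, n = 4 each), and the log2 fold change was 0.34 (edgeR adjusted p 0.621). With DN, Tph2, the neuronal serotonin-making enzyme, was at 2.24 ± 0.307 (SD, n = 5) against 1.87 ± 0.0602 CPM (SD, n = 6), a log2 fold change of 0.27 (edgeR adjusted p 0.999).

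Of the 4 remaining receptor genes, Htr1f and Htr2b were tested and not called, and Htr1d and Htr3b did not pass the filter. Htr1f was at 4.09 to 7.67 CPM over the 19 libraries. Htr1d had 2 to 16 counts per library and Htr3b, the partner subunit of Htr3a, had 0 to 5. The serotonin transporter gene Slc6a4, a mark of serotonin neurons, had 0 to 14 counts per library and did not pass the filter either.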

How the data were processed

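Total RNA depleted of ribosomal RNA (TruSeq with Ribo-Zero Gold, after Trizol extraction, per the labels' protocols) was sequenced from 19 libraries. The authors deposited whole-number counts per gene as 1 table of 51789 rows. The submitters' processing notes name STAR, SAMtools 1.6, featureCounts 1.4.4 and the build mm10; parameters, strand, the treatment of multiply mapped reads and the annotation are not given in the sources used here. Each column matched 1 sample by its name. GENCODE M21 held 51596 of the rows.

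Each experiment was fitted alone with edgeR 4.0.16 in R 4.3.3: TMM scaling, filterByExpr on the tested factor, glmQLFit with robust dispersion, a two-sided quasi-likelihood F test and Benjamini-Hochberg adjustment over all genes tested. DN was set against control in experiment 1 (5 against 6), SOR against homecage in experiment 2 (4 against 4) and tTA+ against tTA- in experiment 2 (5 against 3, with exposure in the model). The SE was the absolute log2 fold change over the square root of F. The fit was tested on simulated counts. Log2 CPM used a prior count of 2. Libraries within a group were further apart than sampling alone gives (chi-square per degree of freedom 4.63 to 73.4, genes with at least 20 counts), so none was merged. There were no molecular identifiers, so counts of reads are not counts of molecules.

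Alternatives were DESeq2 1.42.0, limma-voom (limma 3.58.1), other scalings and filters, a threshold of 0.1, a replicate block, the choroid plexus score or tTA as covariates, 1 fit of all libraries, and each library left out. The receptor genes, marker lists and pathway lists were chosen with earlier results of these data known. The text names all 10 receptor genes, the 5 genes most like Htr4 and Htr2c, and up to 2 genes of a pathway list by p. Mature microRNA sequences came from RefSeq.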

Additional observations from a re-analysis of the deposited data

Results flagged for a closer look

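Of 44 sets of values (the 10 receptor genes and Ttr in each of the 4 groups), 4 held a library far from the rest by Dixon's test, which chance does in about 1 of 20. Htr1a was at 39.5 CPM in homecage replicate 1 of experiment 2, a tTA- mouse, against 32.0 to 32.5 CPM in the other 3 homecage libraries. Htr2c was at 62.8 CPM in control replicate 1 of experiment 1, against 14.9 to 32.8 CPM in the other 5 controls. Ttr was at 3840 CPM in the same library, against 4.22 to 1250 CPM in the others. In DN replicate 2 Ttr was at 1510 CPM, against 10.4 to 142 CPM in the other 4 DN libraries.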

How the results depend on the processing

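No receptor gene was called with DN or with SOR under any alternative. The numbers in the titles do not pair the libraries: same-numbered libraries correlated at -0.05 to 0.194 in experiment 1 and 0.045 to 0.391 in experiment 2. With a replicate block, Htr4 with tTA was -1.03 with an adjusted p of 1, Htr2c with tTA was 1.21 and not called, and 0 receptor genes were called, and the block left 2 calls among all genes with DN, 9 with SOR and 0 with tTA. Leaving out each library in turn gave 0 to 1 receptor genes called with tTA, Htr4 at -1.26 to -1.18, and adjusted p from 1.23e-05 to 0.0512. Leaving out the rich libraries, a choice made after the scores were seen, gave Htr2c 0.19 with DN and -0.463 with SOR, and the score as a covariate gave -0.308 with SOR. Htr2a with SOR ranged from -0.154 to 0.134 when each library was left out. The correlation of Htr2c with the score in experiment 2 was 0.671 both without the 2 farthest libraries and in libraries with a score under 3. Htr2c took place 6 of 10 by level per kilobase, 3 by the longest transcript, 7 in DN mice and 8 in homecage mice. Of 610 alternative values for the other 29 changes, none crossed the threshold; 68 changed sign with both values within 1 SE, and 4 changed sign beyond that. Calls among all genes stayed at 2 with DN, and ranged from 0 to 145 with SOR and 0 to 388 with tTA; the cause was not tested. Htr6 had the fewest counts, 25 to 65 per library.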

Other observations

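Htr2b, a Gq-coupled receptor gene, was at 1.99 to 3.17 CPM in the 11 libraries of experiment 1 and at 0.71 to 1.98 CPM in the 8 of experiment 2, with no overlap. The experiments were scaled separately and are separate by the labels, so the experiments cannot be told apart from their processing, and no test was run. Tph2 was at 1.75 to 2.5 CPM in experiment 1 and at 2.12 to 3.78 CPM in experiment 2.

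DN replicate 4 had the lowest Htr2a (9.74 CPM), Htr1b (4.86 CPM) and Htr4 (16.4 CPM) of experiment 1 and, with Ttr at 15.3 CPM, a Htr2c level of 23.4 CPM, the highest of the libraries of that experiment poor in choroid plexus RNA. Its summed granule marker level, 361 CPM, was also the lowest of the 19. SOR replicate 3 of experiment 2, the smallest library, had the lowest Htr2a (8.66 CPM), Htr2c (10.3 CPM), Htr1a (24.2 CPM), Htr1b (5.11 CPM) and Htr4 (15.9 CPM) of experiment 2, and the highest Htr5b (8.23 CPM). Snora35, inside Htr2c, had 19 counts in homecage replicate 2 against 0 to 12 in the other libraries with a choroid plexus score under 3.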
